A study of Mus musculus with 12 samples.

Results

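10 mouse genes that are little known in T cells, but whose array signal differed strongly between a strong and a weak agonist peptide or between peptide doses, were described over all 12 arrays of the series. They were Wnt10a, Slc22a2, Pla2g4f, Serpinc1, Ppic, Slc9b2, Ptger2, Endod1, Mdfic and Slc29a1. The genes were chosen by the size of their peptide or dose differences on these same arrays, so those differences are given as a description, without tests. For these genes a test is given only for the difference of replicate 1, which the choice did not use. Tests of peptide and dose are given for other genes, and the lists of related genes were chosen with earlier results of these data known. The genes were found as the probe sets whose annotation gives 1 gene symbol and that symbol is a member, which yielded 10 of the 12394 genes on the array and 13 of its 22690 probe sets. Endod1 had 4 probe sets and each of the 9 others had 1.

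The cells were T cells carrying the transgenic 5CC7 T cell receptor. Per the labels, they were transferred by tail vein into B10.A mice, which were then injected, also by tail vein, with peptide in PBS. The 4 groups received 2 µg of MCC, 0.2 µg of MCC, 2 µg of 102S or 0.2 µg of 102S, and each had 3 arrays. The labels call MCC a strong agonist of this receptor and 102S a weak agonist. After 48 h the 5CC7 cells were recovered by flow sorting from pooled lymph nodes, so each array measured a pool of cells. All groups had been stimulated, and unstimulated cells were not analysed here. In such bulk samples, fewer expressing cells and less RNA per cell cannot be told apart.

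A T cell reads the strength of its ligand through the T cell receptor, whose signals reach the nucleus through calcium and NFAT, the MAP kinases and AP-1, and NF-κB. Peptide dose changes how many complexes the cell meets, and peptide sequence can change how long each one stays bound. The 10 genes are better known from other tissues. Wnt10a encodes a secreted Wnt ligand studied in skin, hair and teeth. Slc22a2 encodes the organic cation transporter OCT2 of the kidney tubule, and Serpinc1 encodes antithrombin, the plasma inhibitor of thrombin made in the liver. Pla2g4f is a cytosolic phospholipase A2, of the enzyme family that releases fatty acids from membrane lipids, and Ptger2 is the EP2 receptor, which raises cyclic AMP when it binds prostaglandin E2. Ppic is cyclophilin C, a prolyl isomerase that binds cyclosporin. Slc9b2 is a sodium/proton exchanger, Slc29a1 is the nucleoside transporter ENT1, Mdfic is a regulator of transcription with an I-mfa domain, and Endod1 carries an endonuclease domain.

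Levels are log2 signals of a probe set, and a difference of 1 log2 is a doubling. A group was said to express a gene where all 3 of its arrays lay above log2 4.48, the 40th percentile of the probe sets' means, which also served as the filter of the tests. Pla2g4f and Serpinc1 were expressed only in the MCC groups, at both doses. Slc22a2, Ppic, Slc9b2 and Ptger2 were expressed in 3 groups and not with 0.2 µg of 102S. Wnt10a, Endod1, Mdfic and Slc29a1 were expressed in all 4 groups. All 10 genes passed the filter, which uses the mean over the 12 arrays. Where a group's mean lay below the filter, the difference from it is given as a lower limit, taken against each array's own 40th percentile.

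**Figure D1:**
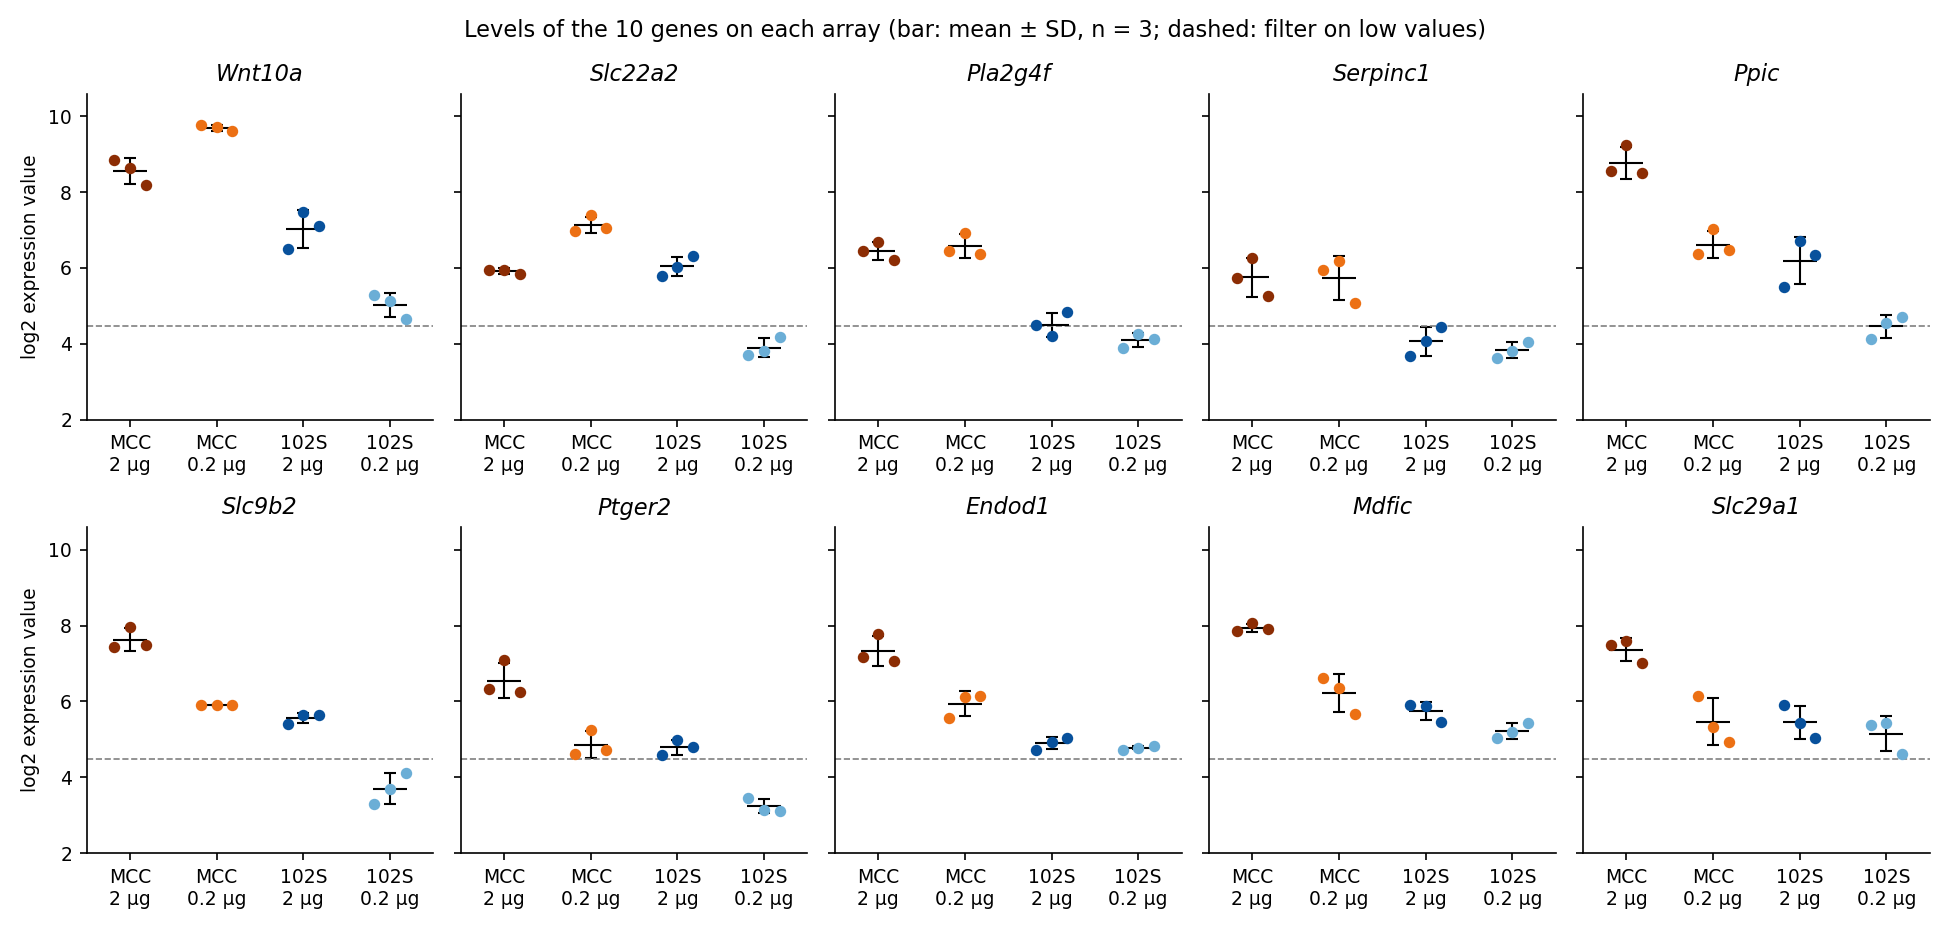
Log2 signal of the 10 genes on each array, 1 panel per gene, with the groups from left to right 2 µg of MCC, 0.2 µg of MCC, 2 µg of 102S and 0.2 µg of 102S. Points are arrays, bars are group means ± SD (n = 3) and the dashed line marks the filter at 4.48. Wnt10a and Slc22a2 peak at 0.2 µg of MCC. Pla2g4f and Serpinc1 are higher on all MCC arrays than on all 102S arrays, as some of the others are, but their doses of MCC overlap. The other 6 are highest at 2 µg of MCC.

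The promoters of the genes that differ most in pattern are shown first. Windows of 300 bases around the annotated start, from a RefSeq table of assembly GRCm38.p6, were searched for 7 of the 10 genes. No window was found for Wnt10a and Endod1, and Ppic was left out of the search, so the counts below do not cover these genes. Printed here are those of Slc22a2, whose dose difference ran in opposite directions with the 2 peptides, of Pla2g4f and Serpinc1, expressed with MCC alone, and of Ptger2, highest at 2 µg of MCC. They lie at chr17:12583939-12584238 on the plus strand, chr2:120314116-120314415 on the minus strand, chr1:160978333-160978632 on the plus strand and chr14:44987861-44988160 on the plus strand. Capitals mark the NFAT core GGAAA, read as TTTCC on the opposite strand, and the TCF/LEF core CTTTGA.
Slc22a2: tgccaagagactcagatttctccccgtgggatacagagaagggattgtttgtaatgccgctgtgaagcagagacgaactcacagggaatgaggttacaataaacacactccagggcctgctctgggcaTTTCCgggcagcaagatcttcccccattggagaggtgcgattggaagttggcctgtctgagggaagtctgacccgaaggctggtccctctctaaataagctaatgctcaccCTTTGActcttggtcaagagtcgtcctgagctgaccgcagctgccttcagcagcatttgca
Pla2g4f: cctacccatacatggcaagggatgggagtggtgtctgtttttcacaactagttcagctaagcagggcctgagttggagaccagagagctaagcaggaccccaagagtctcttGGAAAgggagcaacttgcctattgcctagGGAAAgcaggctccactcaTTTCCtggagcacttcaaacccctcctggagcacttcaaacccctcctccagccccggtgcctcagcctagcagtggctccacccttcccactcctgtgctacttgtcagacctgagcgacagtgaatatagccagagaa
Serpinc1: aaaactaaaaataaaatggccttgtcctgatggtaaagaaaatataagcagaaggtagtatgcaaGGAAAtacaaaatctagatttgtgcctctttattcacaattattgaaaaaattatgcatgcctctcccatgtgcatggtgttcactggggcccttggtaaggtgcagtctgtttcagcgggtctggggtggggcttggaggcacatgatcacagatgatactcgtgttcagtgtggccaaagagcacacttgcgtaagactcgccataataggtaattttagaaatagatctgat
Ptger2: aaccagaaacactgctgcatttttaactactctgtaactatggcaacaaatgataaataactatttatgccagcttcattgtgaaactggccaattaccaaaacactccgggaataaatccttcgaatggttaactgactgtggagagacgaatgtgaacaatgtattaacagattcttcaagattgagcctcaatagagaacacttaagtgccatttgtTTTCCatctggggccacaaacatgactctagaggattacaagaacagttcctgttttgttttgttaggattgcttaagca
The NFAT core stood in 7 of the 7 windows, but it is short and stood in 61.3% of the 32851 windows of the table. The TCF/LEF core stood in 1 of the 7, that of Slc22a2, and in 16.0% of all windows. The EGR site GCGTGGG stood in 1, that of Slc9b2, and in 5.04% of all windows. The AP-1 site TGANTCA (7.81% of all windows), the CRE core TGACG (20.8%) and the E-box CACGTG (7.15%) stood in none of the 7. Both strands were searched, and no matches overlapped in the 7 windows. A match of letters is a description and not evidence of binding.

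Wnt10a and Slc22a2 had their highest level at 0.2 µg of MCC, and their dose differences ran in opposite directions with the 2 peptides. Wnt10a, the Wnt ligand, read 8.84, 8.64 and 8.19 at 2 µg of MCC, 9.77, 9.71 and 9.60 at 0.2 µg of MCC, 6.49, 7.48 and 7.10 at 2 µg of 102S, and 5.29, 5.12 and 4.66 at 0.2 µg of 102S. Its 4 groups did not overlap at any step of this order. With MCC the level at 2 µg was 2.20-fold lower than at 0.2 µg, a log2 difference of -1.14 ± 0.25 (SE). With 102S the level at 2 µg was 3.99-fold higher than at 0.2 µg, by 2.00 ± 0.25 log2. The level with MCC was 2.90-fold that with 102S at 2 µg and 25.4-fold at 0.2 µg. As measured, the difference at 0.2 µg, 4.67 ± 0.25 log2, was the largest among the 10 genes in any of the 4 comparisons. Some of the others are known only as lower limits.

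Slc22a2, the cation transporter, read 5.96, 5.96 and 5.83 at 2 µg of MCC, 6.98, 7.38 and 7.05 at 0.2 µg of MCC, 5.80, 6.02 and 6.31 at 2 µg of 102S, and 3.70, 3.80 and 4.17 at 0.2 µg of 102S. At 2 µg the peptides overlapped, with a difference of -0.13 ± 0.18 log2. At 0.2 µg MCC was at least 6.48-fold higher than 102S, whose arrays lay below the filter. The level at 2 µg of MCC was 2.34-fold lower than at 0.2 µg of MCC, by -1.22 ± 0.18 log2. The level at 2 µg of 102S was at least 3.04-fold higher than at 0.2 µg of 102S. So the order of the groups was the same as for Wnt10a except that the 2 groups given 2 µg were not separated. The genes that varied most like this pair over the 12 arrays, out of 7935 searched, were Pgap2 for Wnt10a (Pearson r = 0.979) and Tnfrsf18, which encodes the costimulatory receptor GITR, for Slc22a2 (r = 0.972). These correlations describe arrays that share groups and carry no test.

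Pla2g4f and Serpinc1 were separated by peptide at either dose, and their doses of MCC overlapped. With 102S their signal lay near or below the filter, where a dose difference could not be measured. The phospholipase Pla2g4f read 6.46, 6.69 and 6.22 at 2 µg of MCC, 6.46, 6.93 and 6.36 at 0.2 µg of MCC, 4.49, 4.20 and 4.84 at 2 µg of 102S, and 3.89, 4.25 and 4.14 at 0.2 µg of 102S. All 6 MCC arrays lay above all 6 of the 102S arrays, and the doses of each peptide overlapped. MCC exceeded 102S by 3.85-fold at 2 µg (1.95 ± 0.21 log2) and by at least 4.40-fold at 0.2 µg. The dose difference with MCC was -0.12 log2. That with 102S is known only as a limit, at least 0.07 log2, because the 0.2 µg group lay below the filter.

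Serpinc1, the antithrombin gene, read 5.74, 6.27 and 5.25 at 2 µg of MCC, 5.95, 6.19 and 5.09 at 0.2 µg of MCC, 3.67, 4.06 and 4.46 at 2 µg of 102S, and 3.64, 3.82 and 4.06 at 0.2 µg of 102S. Here too the peptides separated on every array and the doses overlapped. No 102S array reached the filter, so only limits can be given, at least 2.52-fold at 2 µg and at least 2.46-fold at 0.2 µg. The dose difference with MCC was 0.01 ± 0.32 log2, and none is given with 102S, since readings below the filter have no order. The gene most like Pla2g4f was Smarcc1, a subunit of the SWI/SNF chromatin remodelling complex (r = 0.990), followed by Ptger4, and the gene most like Serpinc1 was C1qtnf12 (r = 0.945).

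Slc9b2, Ptger2 and Ppic were highest at 2 µg of MCC, lowest at 0.2 µg of 102S, and higher at the larger dose of either peptide. Slc9b2, the sodium/proton exchanger, read 7.44, 7.97 and 7.49 at 2 µg of MCC, 5.90, 5.89 and 5.90 at 0.2 µg of MCC, 5.41, 5.65 and 5.64 at 2 µg of 102S, and 3.29, 3.70 and 4.12 at 0.2 µg of 102S. No neighbouring groups in this order overlapped, though 0.2 µg of MCC exceeded 2 µg of 102S by only 0.33 log2. The level at 2 µg of MCC was 3.33-fold that at 0.2 µg of MCC. With 102S the dose difference was at least 2.18-fold. MCC exceeded 102S by 2.07 ± 0.21 log2 at 2 µg and by at least 2.74-fold at 0.2 µg.

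Ptger2, the prostaglandin E2 receptor, read 6.33, 7.08 and 6.24 at 2 µg of MCC, 4.60, 5.26 and 4.73 at 0.2 µg of MCC, 4.58, 4.98 and 4.80 at 2 µg of 102S, and 3.47, 3.14 and 3.12 at 0.2 µg of 102S. The 0.2 µg MCC and 2 µg 102S groups overlapped, with a difference of 0.08 log2. The level at 2 µg of MCC was 3.22-fold that at 0.2 µg of MCC (1.69 ± 0.25 log2). The level with MCC was 3.39-fold that with 102S at 2 µg and at least 1.34-fold at 0.2 µg. With 102S the dose difference was at least 1.27-fold. These limits are low because the middle groups themselves lay near the filter.

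Ppic, cyclophilin C, read 8.55, 9.24 and 8.49 at 2 µg of MCC, 6.36, 7.01 and 6.47 at 0.2 µg of MCC, 5.51, 6.71 and 6.35 at 2 µg of 102S, and 4.12, 4.55 and 4.70 at 0.2 µg of 102S. Its middle groups overlapped, with 0.2 µg of MCC above 2 µg of 102S by 0.43 log2. The dose difference was 2.14 ± 0.31 log2 with MCC, or 4.42-fold, and at least 3.13-fold with 102S. MCC exceeded 102S by 2.57 ± 0.31 log2 at 2 µg and by at least 4.20-fold at 0.2 µg. For all 3 of these genes, a dose of 0.2 µg of the strong peptide thus gave a level within 0.43 log2 of that at 2 µg of the weak one. Slamf6, a receptor of the SLAM family, was the gene most like Slc9b2 (r = 0.984). Lclat1 was most like Ptger2 (r = 0.9785), followed by Slamf6 (r = 0.9777). Nrp1, the neuropilin-1 gene, was most like Ppic (r = 0.978).

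Endod1, Mdfic and Slc29a1 were also highest at 2 µg of MCC, but differed little or not at all between the doses of 102S. The main probe set of Endod1 read 7.17, 7.78 and 7.06 at 2 µg of MCC, 5.55, 6.11 and 6.14 at 0.2 µg of MCC, 4.73, 4.93 and 5.05 at 2 µg of 102S, and 4.73, 4.79 and 4.82 at 0.2 µg of 102S. The doses of 102S overlapped, with a difference of 0.12 log2, and all other neighbouring groups were separate. The level at 2 µg of MCC was 2.64-fold that at 0.2 µg of MCC. MCC exceeded 102S by 5.39-fold at 2 µg (2.43 ± 0.21 log2) and by 2.23-fold at 0.2 µg.

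The 4 probe sets of Endod1 varied together, with pairwise r between 0.925 and 0.972 over the 12 arrays, but did not give the same sizes. At 2 µg, MCC exceeded 102S by 3.32 log2 on the probe set with the suffix a, by at least 2.17 on that with the suffix x and by at least 2.20 on the other plain one, all within 1 log2 of the main one. At 0.2 µg the difference was at least 1.03 log2 on the suffix a probe set, at least 0.52 on the suffix x one and 0.47 on the other plain one, beside 1.16 on the main probe set. With 102S, the suffix a probe set read 4.39, 4.62 and 4.45 at 2 µg and 3.11, 2.56 and 3.66 at 0.2 µg, below the filter, a dose difference of at least 0.05 log2. On the suffix x and the other plain probe set the group given 2 µg of 102S had a mean below the filter. The near-equality of the 102S doses therefore rests on the main probe set.

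**Figure D2:**
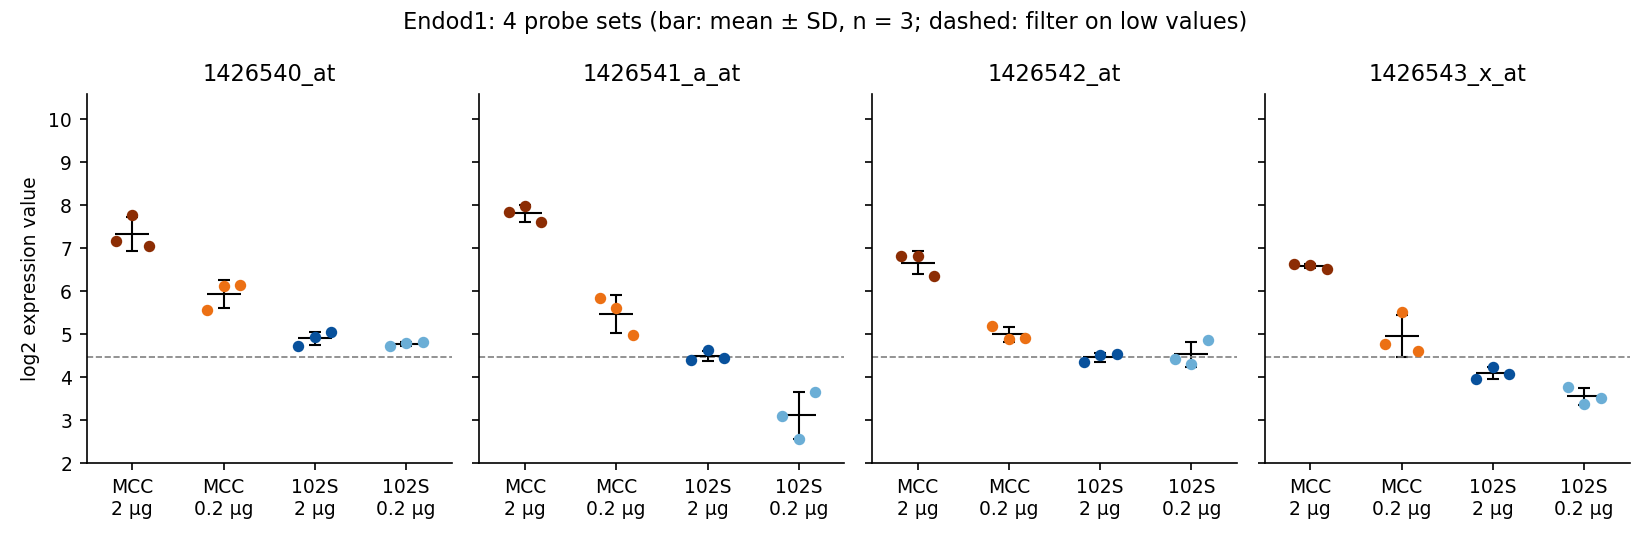
Log2 signal of the 4 Endod1 probe sets on each array, with the groups from left to right 2 µg of MCC, 0.2 µg of MCC, 2 µg of 102S and 0.2 µg of 102S. Points are arrays, bars are group means ± SD (n = 3) and the dashed line is the filter. All 4 probe sets are highest at 2 µg of MCC, and 2 of them lie below the filter at 0.2 µg of 102S.

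Mdfic read 7.87, 8.06 and 7.91 at 2 µg of MCC, 6.62, 6.37 and 5.66 at 0.2 µg of MCC, 5.90, 5.87 and 5.47 at 2 µg of 102S, and 5.03, 5.20 and 5.43 at 0.2 µg of 102S. The 0.2 µg MCC arrays overlapped those of 2 µg of 102S, and the doses of 102S were narrowly separate, with a 1.44-fold difference. MCC exceeded 102S by 2.20 ± 0.23 log2 at 2 µg and by 1.99-fold at 0.2 µg. The dose difference with MCC was 1.73 log2.

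Slc29a1, the nucleoside transporter, read 7.48, 7.59 and 7.03 at 2 µg of MCC, 6.15, 5.32 and 4.94 at 0.2 µg of MCC, 5.90, 5.42 and 5.03 at 2 µg of 102S, and 5.38, 5.44 and 4.61 at 0.2 µg of 102S. Only the 2 µg MCC group stood apart, and the other 3 overlapped. Its level was 3.77-fold that with 2 µg of 102S and 3.72-fold that with 0.2 µg of MCC. At 0.2 µg the peptides differed by 0.33 log2 and the doses of 102S by 0.31 log2, each no larger than the standard error of 0.33. The genes most like this trio were Ptpn11 for Endod1 (r = 0.976), which encodes the phosphatase SHP-2, Nek7 for Mdfic (r = 0.977) and Tfg for Slc29a1 (r = 0.986).

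Over the 10 genes, the groups of a comparison were often separate, which the choice of the genes fixes in large part. MCC was higher than 102S with no overlap for 9 of the 10 at 2 µg, where this held for 12.3% of the 13556 probe sets tested, and for 9 of the 10 at 0.2 µg, where it held for 13.9%. Slc22a2 was the exception at 2 µg and Slc29a1 at 0.2 µg. The larger dose of MCC was higher without overlap for 6 genes (7.69% of all probe sets) and lower for 2 (10.8%), and the larger dose of 102S was higher for 6 (12.8%). The median difference of the 10 was 1.93 log2 for peptide at 2 µg and 1.54 for MCC dose. For peptide at 0.2 µg it was 2.03 log2 as measured and 1.38 with the 6 genes whose 102S group lay below the filter at their lower limit. For 102S dose it was 1.04 log2 as measured and 0.53 with 5 genes at their limit and Serpinc1 left out. The median over all probe sets tested was -0.04 log2 for peptide at each dose, -0.01 for MCC dose and -0.0035 for 102S dose. Nothing is read from these counts, since the rule used the same comparisons.

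**Figure D3:**
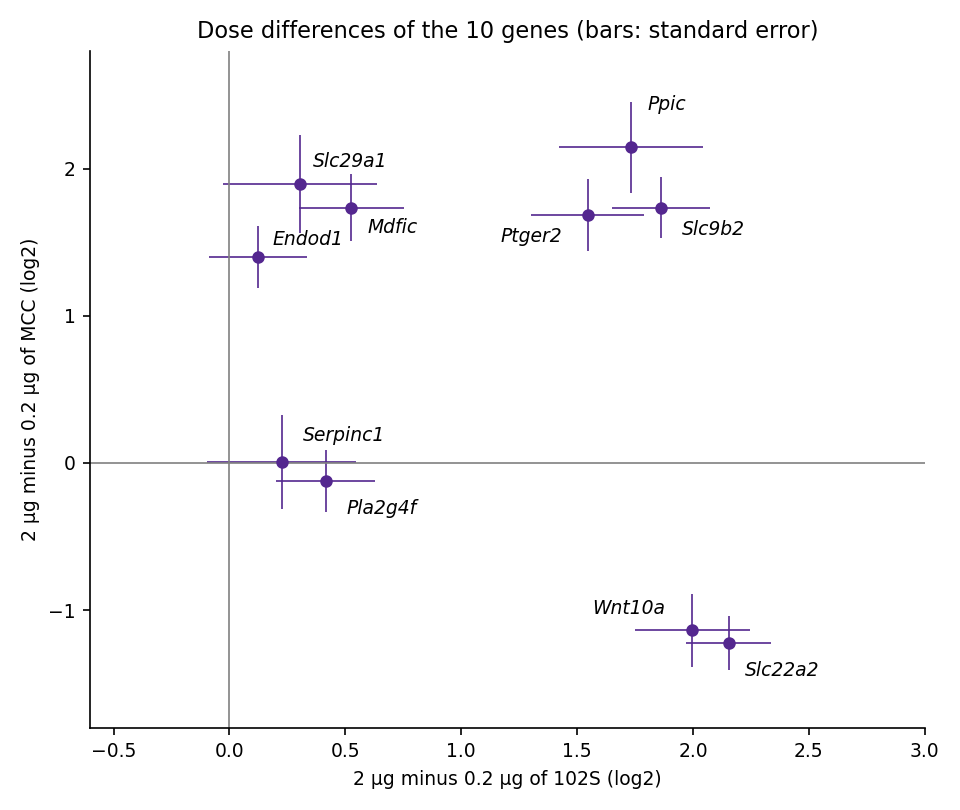
Difference between 2 µg and 0.2 µg in log2, with MCC on the vertical axis and 102S on the horizontal axis. Each point is 1 of the 10 genes with standard errors of the fit, at its measured value also where a 102S group lay below the filter and only a limit is known. Wnt10a and Slc22a2 lie below 0 on the MCC axis and near 2 on the 102S axis, Pla2g4f and Serpinc1 lie near 0 on both, Ppic, Slc9b2 and Ptger2 are above 1 on both, and Endod1, Mdfic and Slc29a1 are above 1 with MCC only.

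Across the 12 arrays the 45 pairs of these genes correlated with r between 0.16 and 0.98 (median 0.78), which restates their group differences. Within groups, as deviations from the group means, r lay between -0.63 and 0.77 with a median of 0.38, and 36 of 45 pairs were above 0. Endod1 and Ptger2 had the highest value and Slc22a2 and Slc29a1 the lowest. These are descriptions over 12 arrays, whose points share a group and, within a replicate number, the sex type of the cells.

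The difference between replicate 1 and replicates 2 and 3 was not used to choose the genes and was tested with groups held equal. Xist, the RNA that coats the silenced X chromosome in females, read 11.7 to 12.3 log2 on the 4 replicate 1 arrays and 4.05 to 5.10 on the 8 others, so the replicate 1 cells were of female type and the others were not. Of all probe sets, 12.9% passed the test (limma, Benjamini-Hochberg adjusted p under 0.05). Of the 10 genes, 1 passed. Ppic fell by 0.56 ± 0.17 log2 in replicate 1, to a mean of 6.14 against 6.69 in the others, and was lower in 4 of 4 groups (adjusted p = 0.0473). This call was lost without the filter (limma adjusted p = 0.0562), without the intensity trend (0.0643) and with the 3′ to 5′ measure of β-actin RNA as a covariate (0.549). Leaving out 1 array kept it for 2 of the 12 arrays, replicate 2 with 0.2 µg of 102S and replicate 3 with 2 µg of MCC. Slc29a1 gave 0.55 ± 0.19 log2 and was higher in replicate 1 in 4 of 4 groups (adjusted p = 0.0655). It passed without replicate 2 of 0.2 µg of 102S and without replicate 2 of 2 µg of MCC. The other 8 genes lay between -0.29 and 0.11 log2, small beside their peptide or dose differences.

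**Figure D4:**
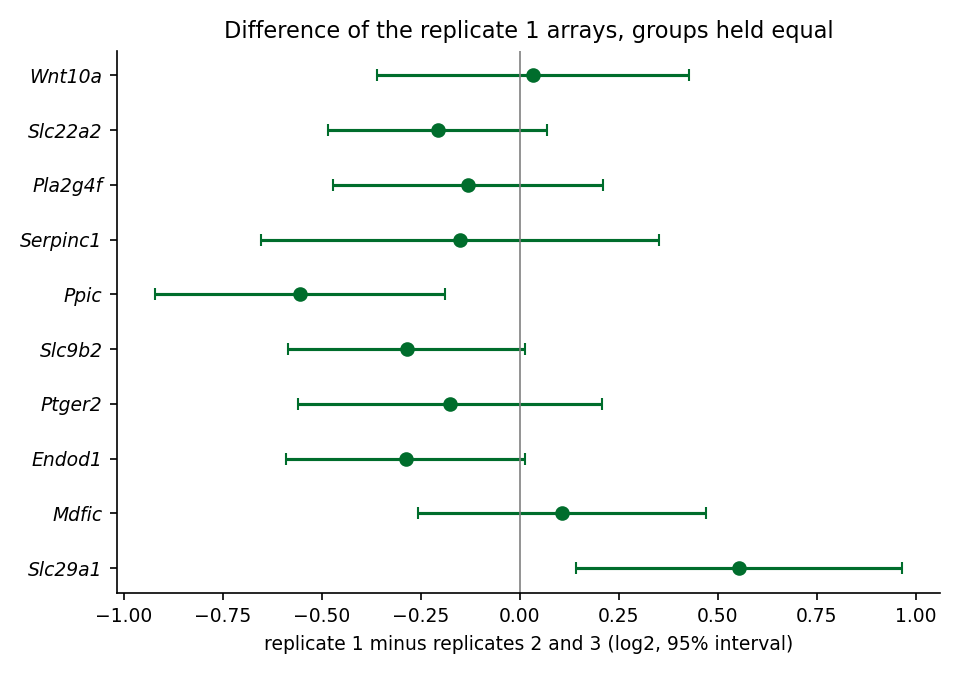
Difference of the replicate 1 arrays from replicates 2 and 3 in log2 for the 10 genes, with groups held equal in the fit. Points are estimates and bars are 95% intervals. Ppic lies below 0 and Slc29a1 above 0, and the intervals of the other 8 genes include 0.

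Genes related to the 10 by family or pathway, none of them a member, were then examined. Their tests use the same comparisons and arrays as the choice of members, and the lists were chosen with earlier results known. These tests are therefore not independent of that choice. The 7 lists held 246 genes, of which 185 had a probe set and 96 passed the filter. At 2 µg, 11 of the 96 passed the test between MCC and 102S, 5 higher and 6 lower, or 11.5%, against 10.3% of all probe sets. With the replicate number as a block, 25 passed, or 26%, beside 18.3% of all. The count was 6 without replicate 1 of 2 µg of 102S or without replicate 2 of 2 µg of MCC, and 7 without replicate 3 of 2 µg of 102S. At 0.2 µg, 15 passed, 8 higher and 7 lower, or 15.6%, against 14.3% of all. Between the doses of MCC 0 of the 96 passed, where 1.76% of all probe sets did, and 15 had an unadjusted p under 0.05. With the replicate block 13 passed, or 13.5%, beside 11.5% of all, and 8 passed without replicate 1 of 0.2 µg of MCC. Between the doses of 102S 3 of the 96 passed, all higher at 2 µg, or 3.12%, against 3.16% of all. The counts moved with the model along with those of the whole array. With the 3′ to 5′ measure of β-actin as a covariate, 28.1% of the related genes and 26.9% of all probe sets passed for peptide at 0.2 µg, and 10.4% and 10.5% for the dose of 102S.

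**Figure D5:**
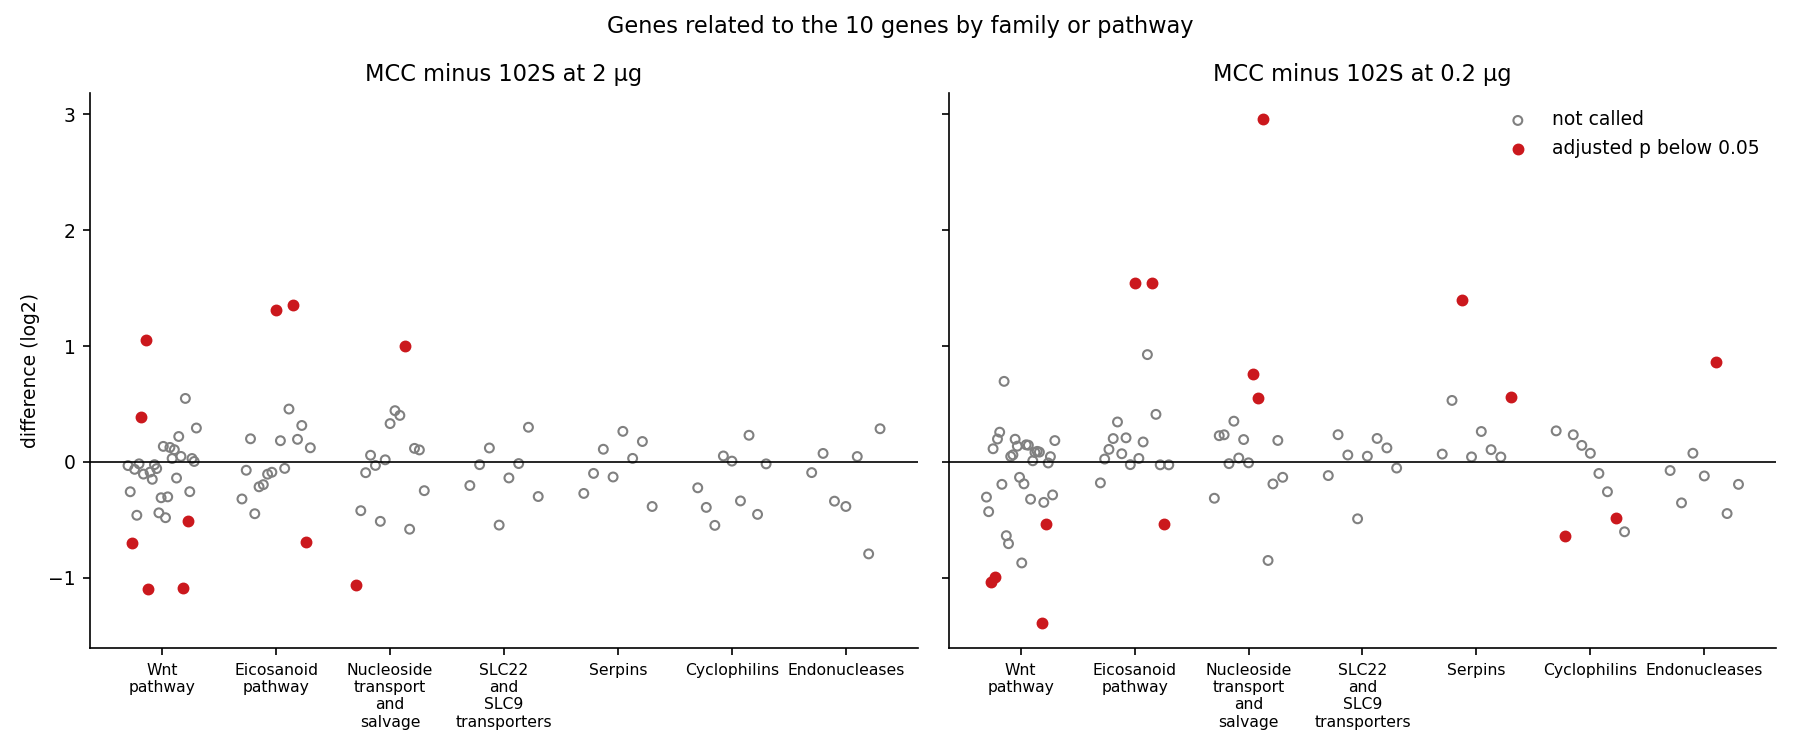
Difference MCC minus 102S in log2 for the 96 related genes tested, by list, at 2 µg on the left and at 0.2 µg on the right. Each point is a gene, and filled points passed limma's test (adjusted p under 0.05). The filled points are few and lie on both sides of 0, with Tk1 farthest from 0 at 0.2 µg.

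Of 32 genes of Wnt signalling tested, 2 were higher and 4 lower with MCC at 2 µg (18.8% called), where 548 of all probe sets were higher and 844 lower. At 0.2 µg 0 were higher and 4 lower (12.5% called), where 1064 of all were higher and 875 lower. Axin2, an inhibitor of the pathway and a common readout of β-catenin activity, read 6.10, 6.23 and 6.09 with 2 µg of MCC, against 6.93, 6.68 and 6.91 with 2 µg of 102S (-0.70 ± 0.14 log2, adjusted p = 0.00663). With 0.2 µg it read 6.23, 6.23 and 6.30 with MCC, against 7.51, 7.17 and 7.19 with 102S (-1.03 ± 0.14, adjusted p = 0.00028). Between the peptides, Axin2 was thus lower where the ligand Wnt10a was higher, at both doses. This did not hold between the doses of MCC. There, 2 µg minus 0.2 µg was -0.11 log2 for Axin2 and -1.14 for Wnt10a. Bcl9l, a coactivator of β-catenin, averaged 6.82 ± 0.09 with 0.2 µg of MCC, against 7.81 ± 0.07 with 0.2 µg of 102S (SD, n = 3, adjusted p = 0.00043). Tle1, a corepressor that binds TCF factors, was lower by 1.39 log2 at 0.2 µg (adjusted p = 0.00219). At 2 µg its MCC group lay below the filter, and the call there (adjusted p = 0.0135) was lost when replicate 1 or 3 of 2 µg of 102S or replicate 2 of 2 µg of MCC was left out. Dvl1, a Dishevelled protein that relays the Wnt signal from its receptors, fell by 1.10 log2 with MCC at 2 µg (adjusted p = 0.00653). These p-values are of limma. The 4 genes named here had the smallest adjusted p of the list, and the 2 that were higher at 2 µg are not among them.

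In the eicosanoid list, which holds enzymes and receptors of prostaglandins and related lipids, 2 of 17 were higher and 1 lower with MCC at each dose. That is 17.6% at each dose, beside 10.3% of all probe sets at 2 µg and 14.3% at 0.2 µg. Ptger4, the EP4 receptor for the same prostaglandin as Ptger2, read 10.66, 10.94 and 10.74 with 2 µg of MCC, against 9.46, 9.42 and 9.53 with 2 µg of 102S, a difference of 1.31 ± 0.10 log2 (limma adjusted p = 2.22e-05). With 0.2 µg it read 10.55, 10.75 and 10.70 with MCC, against 9.26, 9.06 and 9.05 with 102S (1.55 ± 0.10 log2, adjusted p = 1.39e-06). Ptgr1, a reductase that inactivates eicosanoids, was higher by 1.36 ± 0.26 log2 with MCC at 2 µg (adjusted p = 0.00598) and also passed at 0.2 µg (adjusted p = 0.0017), where its 102S group lay below the filter. Tbxa2r, the thromboxane receptor, was lower with MCC by -0.69 ± 0.12 log2 at 2 µg (adjusted p = 0.00419) and by -0.54 at 0.2 µg (adjusted p = 0.0123). The last of these calls was lost without replicate 2 of 0.2 µg of MCC and when only the groups compared were fitted.

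Among 15 genes of nucleoside transport and salvage tested beside Slc29a1, 1 was higher and 1 lower with MCC at 2 µg, 3 were higher at 0.2 µg, and 2 were higher at the larger dose of 102S. These are 13.3%, 20% and 13.3%, beside 10.3%, 14.3% and 3.16% of all probe sets. Tk1, the thymidine kinase of the S phase, read 6.61, 7.13 and 7.17 with 0.2 µg of MCC, against 3.83, 4.16 and 4.04 with 0.2 µg of 102S, all of which lay below the filter (limma adjusted p = 1.32e-05). It was also higher with 2 µg of 102S, at 5.26, 6.24 and 6.30, than with 0.2 µg of 102S (adjusted p = 0.00132). At 2 µg MCC exceeded 102S by 1.00 log2 (adjusted p = 0.0317), a call lost when replicate 1 of 2 µg of 102S or any array of 2 µg of MCC was left out. Pnp, the purine nucleoside phosphorylase, was higher by 0.76 log2 with 0.2 µg of MCC than with 0.2 µg of 102S (adjusted p = 0.00376). Slc29a3, a relative of Slc29a1 in lysosomes, was higher by 0.55 log2 in the same comparison (adjusted p = 0.0103). That call was lost without replicate 2 of 0.2 µg of 102S and when only the groups compared were fitted. Adk, the adenosine kinase, was higher by 0.58 log2 with 2 µg than with 0.2 µg of 102S (adjusted p = 0.0332). This call was lost when any array of these 2 groups other than replicate 3 of 0.2 µg of 102S was left out. The Adk call was also lost without the filter, with quantile normalization and when only the groups compared were fitted.

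In the remaining families few genes were tested, so their shares are only descriptive. At 0.2 µg, 25% of serpins, 22.2% of cyclophilins and 14.3% of endonucleases passed between MCC and 102S, beside 14.3% of all probe sets. At 2 µg 0 of these genes passed, beside 10.3% of all. Between the doses of 102S, 12.5% of serpins passed, beside 3.16% of all. Of 8 transporters of the SLC22 and SLC9 families tested, 0 passed in any of the 4 comparisons, and 1 had an unadjusted p under 0.05 for peptide at each dose. Of 8 serpins, 2 were higher with MCC at 0.2 µg. Serpinb6b, an intracellular protease inhibitor, read 7.54, 7.68 and 7.87 with 0.2 µg of MCC, against 6.26, 6.30 and 6.33 with 0.2 µg of 102S (limma adjusted p = 0.000265), and was higher with 2 µg than with 0.2 µg of 102S by 1.05 log2 (adjusted p = 0.00655). Serpini1, neuroserpin, was higher with MCC at 0.2 µg by 0.56 log2 (adjusted p = 0.0452), a call lost when any 1 of the 6 arrays was left out. The Serpini1 call was also lost without the filter and when only the groups compared were fitted. Of 9 cyclophilins, 2 were lower with MCC at 0.2 µg. They were Nktr, by -0.64 log2 (adjusted p = 0.0128), and Ppil4, by -0.48 (adjusted p = 0.0358). Each lost its call without some arrays, replicate 2 of either group among them. Both calls were also lost when only the groups compared were fitted, and that of Ppil4 without the filter. Of 7 endonucleases, 1 was higher with MCC at 0.2 µg, the lysosomal Dnase2a, by 0.87 log2 (adjusted p = 0.0071).

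The cells carried the markers of T cells, with 9 of 9 measured T cell genes above the filter on all 12 arrays. Among them, Cd5 passed as higher and Cd247 as lower with MCC at 0.2 µg, and Cd5 as higher at the larger dose of 102S. The summed linear signal of these 9 was 20280 to 22820 with 2 µg of MCC, 19400 to 21700 with 0.2 µg of MCC, 22220 to 23890 with 2 µg of 102S and 18270 to 21290 with 0.2 µg of 102S. The 5 CD8 T and NK cell markers measured summed to 237.2 to 296.9 with 2 µg of MCC, 320.4 to 424.3 with 0.2 µg of MCC, 467.3 to 493.4 with 2 µg of 102S and 710 to 837.7 with 0.2 µg of 102S, with Ncr1 below the filter on all arrays. The sum ran opposite to the level of Ppic, Slc9b2 and Ptger2. It followed mainly Klrd1, an NK receptor chain, which passed as lower with MCC at both doses. Its mean was 4.65 log2 at 2 µg of MCC, 6.27 at 0.2 µg of MCC, 7.33 at 2 µg of 102S and 8.63 at 0.2 µg of 102S. Gzma had the same order, with means of 4.28, 5.29, 5.62 and 5.96, and passed as lower with MCC at 2 µg. The CD8 chains Cd8a (5.55 to 5.97) and Cd8b1 (7.41 to 7.88) passed in none of the 4 comparisons. The part of Klrd1-expressing cells in the members' differences was not tested. Among B cell markers, Cd79b passed as higher with MCC at 0.2 µg, with means of 5.23 log2 at 2 µg of MCC, 5.73 at 0.2 µg of MCC, 4.86 at 2 µg of 102S and 4.47 at 0.2 µg of 102S, which is the group order of Wnt10a. The order was not shared by Cd22, the only other B cell marker tested, with means of 5.75, 4.83, 4.75 and 4.90. Cd22 passed in none of the 4 comparisons. The 7 B cell markers measured summed to 146.9 to 210.2 and 156.2 to 166.5 with 2 µg and 0.2 µg of MCC. With 102S they summed to 124.9 to 132.4 at 2 µg and 113.7 to 195.3 at 0.2 µg. The part of Cd79b in the difference of Wnt10a was not tested. Of the 7 B cell markers measured, 1 (Fcer2a) lay below the filter on all 12 arrays, as did 5 of 9 myeloid markers, Itgam among them, and 6 of 10 stromal and endothelial markers, Cdh5 among them. Above it on all 12 arrays lay 1 B cell marker (Cd22) and 1 myeloid marker (Csf1r). The same held for 2 stromal and endothelial markers, Pecam1 (5.13 to 7.79 log2) and Kdr. The 3′ minus 5′ signal of β-actin, a control for RNA quality, was 0.63 ± 0.12 log2 for 2 µg of MCC, 1.62 ± 0.81 for 0.2 µg of MCC, 1.24 ± 0.41 for 2 µg of 102S and 1.33 ± 0.88 for 0.2 µg of 102S (SD, n = 3). With this measure as a covariate the MCC dose difference of Slc29a1 was 1.22 log2 in place of 1.90 and that of Slc22a2 was -0.99 in place of -1.22, and the other member differences moved by less than the spread between replicates.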

How the data were processed

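The authors deposited log2 expression values of 22690 probe sets on 12 Affymetrix mouse arrays. That they are log2 was inferred from their range, 1.86 to 14.7, and from array medians of 5.17 to 5.26. GCOS 1.4 is named per the submitters' processing notes. Probe summarisation, background correction and scaling are not given in the sources used here, and the values were used as deposited. Per the labels' protocols, 100 ng of total RNA was labelled with a 3′ kit.

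Symbols came from the platform annotation. The probe set with the highest mean stood for a gene. Tests covered the 13556 probe sets that were not among the 64 controls and whose mean reached the 40th percentile, log2 4.48. limma 3.58.1 in R 4.3.3 (lmFit, eBayes with trend) fitted 4 group means with 8 residual and 4.16 prior degrees of freedom. Tests were 2-sided, with Benjamini-Hochberg adjustment over the 13556 probe sets and a threshold of 0.05. The fit was tested on simulated data with independent noise on each array. That test does not cover the sharing between same-numbered replicates given below. The number of arrays limits the precision, and the median standard error of a difference was 0.18 log2. The ± values are SE for differences and SD for means. Whether replicates were separate animals is not stated in the labels, so a p-value reflects only the spread among these samples, which may be technical.

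The members and the lists of related genes were chosen with earlier results of these data known. Named were all members and per list up to 4 called genes with the smallest adjusted p. Per member the gene most correlated with it was named, and for Pla2g4f and Ptger2 also the next. Same-numbered replicates deviated together between MCC and 102S at 2 µg (r = 0.60, 0.20 and 0.24 for replicates 1 to 3). They also did between the doses of MCC (r = 0.56, 0.20 and 0.22). For MCC against 102S at 0.2 µg (0.79, -0.29 and 0.66) and for the doses of 102S (0.80, -0.06 and 0.65), replicate 2 did not. Replicates 1 and 3 did in those comparisons. The main fit held no replicate term in any comparison, so its p-values ignore this sharing. The replicate block was only an alternative. Alternatives were no filter, median centring, quantile normalization, no trend, only the compared groups, blocks for replicate number and sex type, a β-actin covariate, other probe sets and leaving out each array.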

Additional observations from a re-analysis of the deposited data

Results flagged for a closer look

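With 10 member genes and 96 related genes, 4 results were flagged because the response to dose differed between the peptides. For Wnt10a the dose difference of MCC minus that of 102S was -3.13 log2, as every array moved down with the dose of MCC and up with that of 102S. For Slc22a2 the same value was -3.38 log2, inexact because its 0.2 µg 102S group lay below the filter. Not flagged, but also different between the peptides, were Endod1 (1.27 ± 0.30 log2 on its main probe set), Mdfic (1.21 ± 0.32) and Slc29a1 (1.59 ± 0.47). In these the level rose more with the dose of MCC than with that of 102S. None of these member differences was tested, since the genes had been chosen for peptide or dose differences.

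Among the related genes, 2 of 96 passed limma's interaction test (Benjamini-Hochberg adjusted p under 0.05), beside 104 of all 13556 probe sets. For Tk1 the peptide difference at 2 µg minus that at 0.2 µg was -1.96 ± 0.37 log2 (adjusted p = 0.0323), inexact because its 0.2 µg 102S group lay below the filter. For Serpinb6b it was -1.29 ± 0.26 log2 (adjusted p = 0.043). In alternatives chosen after seeing the data, Tk1 lost this call in 8 of 19 and Serpinb6b in 12 of 19, with adjusted p up to 0.109 and 0.15, and most of these left out 1 array.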

How the results depend on the processing

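Of the 40 member differences, 35 kept their sign under every alternative. The other 5, all between overlapping groups, changed sign by less than the spread between replicates: Slc22a2 for peptide at 2 µg (0.01 with the β-actin covariate, 0.003 without replicate 3 of 2 µg of 102S), Pla2g4f (0.05 without replicate 2 of 0.2 µg of MCC) and Serpinc1 (-0.32 without replicate 3 of 0.2 µg of MCC, -0.25 without replicate 2 of 2 µg of MCC) for MCC dose, Slc29a1 for peptide at 0.2 µg (-0.02 without replicate 1 of 0.2 µg of MCC) and Endod1 for 102S dose (-0.07 on the other plain probe set). With the β-actin covariate 2 moved by more than the spread between replicates, Slc22a2 and Slc29a1 for the dose of MCC, and with the replicate block, the sex type block, median centring, quantile normalization, only the groups compared or no filter, 0 of 40 did. On the other Endod1 probe sets 7 of 12 differences moved, and when single arrays were left out 0 of 240 did. The number of related genes called between MCC and 102S at 2 µg, 11, became 26 with the β-actin covariate, 25 with the replicate block and 22 with a block for sex type, and 6 to 11 with 1 array left out. At 0.2 µg the 15 became 27 with the covariate, 26 with the replicate block, 23 with the sex type block, 9 with only the groups compared, and 10 to 20 with 1 array left out. Between the doses of MCC the 0 became 3 with the covariate, 13 with the replicate block, 5 with the sex type block, 2 with quantile normalization, and 0 to 8 with 1 array left out. Between the doses of 102S the 3 became 10 with the covariate, 6 with the replicate block, 5 with the sex type block, and 2 to 3 with 1 array left out. The replicate 1 call of 1 member became 0 with the covariate, without the filter and without the trend, and 0 to 2 with 1 array left out. The causes were not tested. Of 26 calls of named related genes, interactions included, 16 held under every alternative, 10 were lost under at least 1, and 0 reversed. Values below the filter have no order, which limits 102S groups most.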
